A study of Mus musculus with 38 samples.

Results

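The sites described here are intervals where HSF2 was mapped at the starts of protein-coding genes in mouse embryonic stem cells and where no HSF1 interval lay. A site was taken when it shared no base with any HSF1 interval and lay over, or at most 1 kb from, a transcript start of a protein-coding gene (GENCODE M21 basic set, mm10). Of 2135 distinct HSF2 intervals, 980 met this rule, and they are called HSF2-only start sites below. No measured signal entered the rule beyond the authors' own calling of the intervals. The JM8 line used is an embryonic stem cell line. Binding was mapped by CUT&Tag, in which an antibody directs the Tn5 transposase to insert adapters into the DNA around a bound protein.

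Endogenous HSF2 was mapped in JM8 cells that grew asynchronously (A) and in cells held in mitosis (M) with nocodazole at 50 ng/ml for 6 h and collected by shake-off. The same phases were mapped after Hsf2 had been knocked out by CRISPR with a pair of guide RNAs, with clones taken from single colonies, and a tagged protein had been put back. Halo-HSF2 is the whole protein, and Halo-H2DBD carries the DNA-binding domain of HSF2. They were inserted by PiggyBac and overexpressed from the EF1α promoter in Hsf2-/- cells, so their levels were not those of the native gene. Halo-HSF2 was mapped with an antibody to HSF2, and HA-tagged Halo-HSF2 and Halo-H2DBD with an antibody to HA. The labels do not say whether the construct mapped with the HSF2 antibody carried the HA tag too. Each of these 8 columns is the authors' mean of 2 libraries, scaled to a spike-in, and no value of a separate library was used. Spread between libraries can therefore not be given, and no difference below has a replicate check.

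Heat shock factors bind repeats of the bases GAA in alternating orientation, the heat shock element, and HSF1 is the main driver of chaperone genes under stress. HSF2 binds the same element, forms complexes with HSF1, and has roles in development, gametes and brain. During mitosis most transcription stops and many transcription factors leave the condensed chromosomes, while some remain at part of their sites and are spoken of as bookmarking factors.

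Sequences of key sites show what the starts look like in DNA (RefSeq GRCm38.p6, the assembly of mm10). The element was searched on both strands as 3 units of GAA or TTC in alternation with 2 free bases between them, 13 bases in all. It is in capitals here with its flanks, read on the strand of the gene. The element near Cenpf, a kinetochore protein, lies in its intron at chr1:189687888-189687916 on the minus strand. The element of Rpl6, a protein of the large ribosomal subunit, lies in an intron at chr5:121204816-121204844 on the plus strand. The element of Bst2, the antiviral protein tetherin, lies upstream of the gene at chr8:71537618-71537646 on the minus strand. The element of the MHC class I gene H2-Q6 is intronic at chr17:35426266-35426294 on the plus strand. The element near Ncapg2, a condensin II subunit, lies at chr12:116405028-116405056 on the plus strand, in an exon of the noncoding or untranslated part of D430020J02Rik. The element of Mgmt, a DNA repair enzyme that removes alkyl groups from guanine, lies in an intron at chr7:136894989-136895018 on the plus strand. Mgmt was added after its values were seen, as the 1 HSF2-only start site with 4 units in a row.
Cenpf: cgcatggtTTCTAGAAGCTTCtttctcac
Rpl6: agtgggggTTCCAGAACCTTCtgttgagc
Bst2: gagttgaaTTCCAGAAGTTTCtcttgctt
H2-Q6: cccccagtTTCTAGAACTTTCcaaagaat
Ncapg2: aggatttcTTCAAGAATCTTCttggttac
Mgmt: ctttctTTCAGGAAGCTTCCAGAAgctcct

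A shorter word, the E-box CACGTG read by MYC, MAX and USF factors, was more frequent at these starts than the heat shock element. It is shown in capitals in the 100 bases before the start of 4 genes, taken after the values were seen as those with the highest HSF2 means among sites with the word in that stretch and no exon over it. The stretch of Cbx8, a chromobox subunit of Polycomb repressive complexes, is chr11:119040970-119041069 on the minus strand. The stretch of Myo9a, an unconventional myosin, is chr9:59750796-59750895 on the plus strand. The stretch of Pip4p1, a phosphoinositide phosphatase, is chr14:50930857-50930956 on the minus strand. The stretch of Mms19, a factor that delivers iron-sulfur clusters to nuclear enzymes, is chr19:41981158-41981257 on the minus strand.
Cbx8: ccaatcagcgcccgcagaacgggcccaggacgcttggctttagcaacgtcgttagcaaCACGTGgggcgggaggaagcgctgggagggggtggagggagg
Myo9a: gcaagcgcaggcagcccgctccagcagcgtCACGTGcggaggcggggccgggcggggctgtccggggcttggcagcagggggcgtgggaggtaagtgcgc
Pip4p1: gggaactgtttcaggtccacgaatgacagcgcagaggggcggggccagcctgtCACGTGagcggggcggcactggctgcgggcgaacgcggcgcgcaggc
Mms19: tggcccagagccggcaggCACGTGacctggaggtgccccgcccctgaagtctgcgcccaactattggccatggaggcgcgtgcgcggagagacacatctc

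The sites also differed in how HSF2 behaved from A to M, and the starts of Stk4 and Sp1 are shown from that range. In the 150 bases before each start the CpG dinucleotides are in capitals. Stk4, a kinase of the Hippo pathway, gained signal, and its stretch is chr2:164073988-164074137 on the plus strand with 15 CpG and 1 E-box. Sp1, the GC-box factor, held the highest signals by the HA antibody. Its stretch is chr15:102406183-102406332 on the plus strand with 8 CpG and 2 GC boxes.
Stk4: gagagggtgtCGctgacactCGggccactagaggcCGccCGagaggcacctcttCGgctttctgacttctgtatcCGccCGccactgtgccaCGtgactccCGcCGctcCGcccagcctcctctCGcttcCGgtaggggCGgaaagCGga
Sp1: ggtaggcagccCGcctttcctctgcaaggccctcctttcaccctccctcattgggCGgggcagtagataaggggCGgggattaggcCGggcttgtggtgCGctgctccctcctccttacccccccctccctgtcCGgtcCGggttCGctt

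HSF2 signal at the 980 HSF2-only start sites was moderate, and lower than at HSF2 sites of the other kinds. The median HSF2 signal was 3.19 in A and 5.04 in M. At the 576 HSF2 sites at coding starts that overlapped an HSF1 interval, the medians were 5.16 and 7.51. At the 287 HSF2-only sites away from coding starts, the distal sites, they were 5.23 and 5.86. The HSF2-only start sites thus had the lowest HSF2 medians of the 3 groups in both phases. Among them the A signal ran from 0.233 to 32.8 and the M signal from 0.381 to 23.0, and no site reached the highest values of the other groups, 115 in A at an HSF1-overlapping start and 142 at a distal site.

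The tagged proteins gave lower values over the same intervals. The authors called these from endogenous HSF2 in A and M, so the difference is in part given by the selection. The paper set its scaling values relative to the asynchronous sample, so levels of different antibodies and constructs may not share a scale. With the antibody to HSF2, Halo-HSF2 had a median of 1.58 in A and 2.62 in M at the HSF2-only start sites. With the antibody to HA, the medians of Halo-HSF2 were 1.27 and 1.95, and those of Halo-H2DBD 1.56 and 1.79. Here the order of the groups changed. Distal sites, which exceeded the HSF2-only start sites in HSF2 signal, were below them in all 6 tagged columns, with 1.04 and 1.54 for Halo-HSF2 by HA. The plot of signal by column shows both orders side by side.

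**Figure D1:**
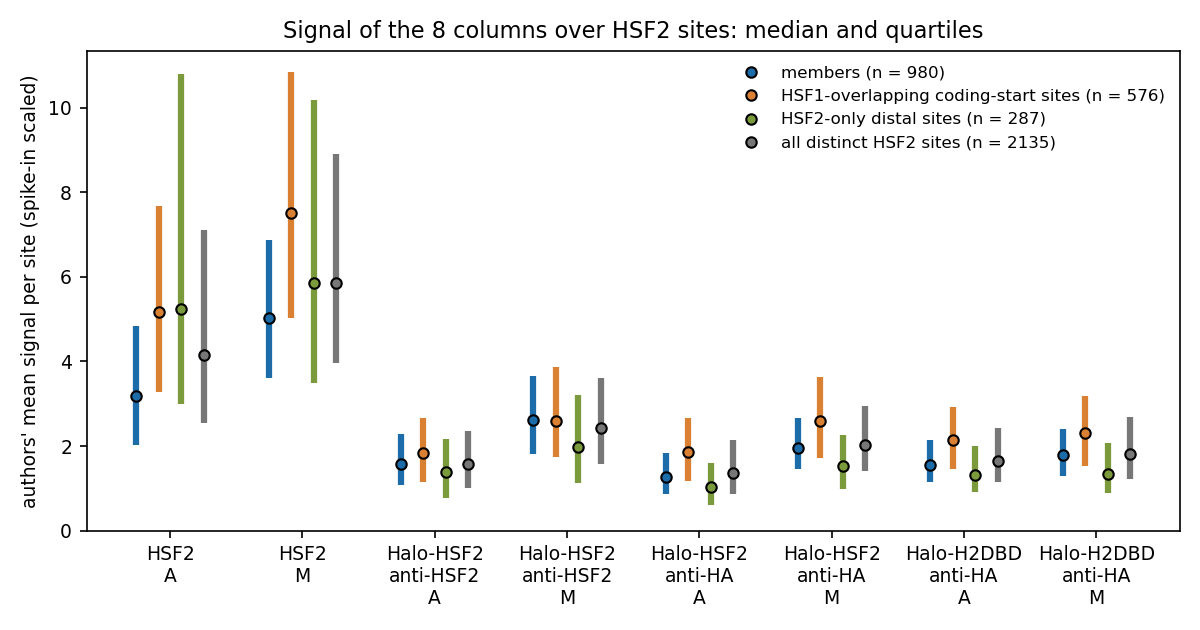
Median (point) and quartiles (line) of the authors' mean spike-in scaled signal in each of the 8 columns, A asynchronous and M mitotic, with HSF2-only start sites labelled as members. Members had the lowest HSF2 medians (3.19 in A, 5.04 in M) but higher medians than the distal sites in every Halo column.

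From A to M, signal at most HSF2-only start sites was higher in the 3 pairs of columns with whole HSF2, and nearly level for the DNA-binding domain. The median log2 M/A of HSF2 was 0.72 (0.66 to 0.79, the 95% order-statistic interval across sites), with 785 of 980 (80.1%) higher in M. For Halo-HSF2 by the HSF2 antibody the median was 0.77 (0.71 to 0.84) over the 979 sites above 0. For Halo-HSF2 by HA it was 0.62, with 89.6% of sites higher in M. Halo-H2DBD had a median of 0.15 (0.12 to 0.18), with 64.9% of sites higher in M. On the deposited scale the domain thus had the smallest difference of the 4 pairs, but centred on the weakest sites its median stayed at 0.15 while that of Halo-HSF2 by HA was -0.08 and that of HSF2 0.01. The intervals describe spread over sites, which are not replicates of a phase.

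The same quantity was lower at both groups set beside them. HSF1-overlapping start sites had an HSF2 median log2 M/A of 0.49, which is 0.22 below the HSF2-only start sites. Distal HSF2-only sites had 0.25, a difference of 0.47. Sites with low HSF2 in A had the larger ratios: the median log2 M/A was 1.64 in the lowest quartile of A signal and -0.14 in the highest, and A signal enters both measures. Among the quartile of HSF2-only start sites with the most signal in A and M together, the difference from the like quartile of HSF1-overlapping start sites was -0.01, and that from the like quartile of distal sites 0.76. Whether signal level accounts for the differences was not tested.

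Counting sites that differed at least 2-fold gave the same picture site by site. HSF2 rose in M at 379 of 980 HSF2-only start sites (38.7%), against 30.1% of all distinct HSF2 sites, and fell at 65 (6.63%), against 7.26%. Halo-HSF2 by the HSF2 antibody rose at 382 of 979 sites (39.0%), against a background of 33.5%, and fell at 25 (2.55%), against 2.92%. Halo-HSF2 by HA rose at 236 sites (24.1%), against 19.8%, and fell at 2 (0.204%), against 0.843%. Halo-H2DBD rose at 48 sites (4.90%), against 3.98%, and fell at 19 (1.94%), against 3.37%. The shares of risen sites in the pairs with the whole protein were thus some points above the background, which includes the distal sites. At HSF1-overlapping start sites HSF2 fell at 2.26%, fewer than at the HSF2-only ones, and at distal sites at 17.8%, more than at them. Endogenous and tagged HSF2 shared part of their sites: 178 were risen in both by the HSF2 antibody, which is 47.0% of the 379, against the 39.0% of all HSF2-only start sites that rose in Halo-HSF2.

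These counts rest on the spike-in scale as deposited. At the weakest quartile of all distinct HSF2 sites the median log2 M/A was 0.71 for HSF2, 0.53 for Halo-HSF2 by the HSF2 antibody, 0.69 for Halo-HSF2 by HA and 0.00 for Halo-H2DBD. Relative to that shift, 145 HSF2-only start sites lay 2-fold or more above and 139 below for HSF2, so risen sites made up 51.1% of the called in place of 85.4%. For Halo-HSF2 by the HSF2 antibody the share of risen among called was 67.4% in place of 93.9%, and by HA 43.3% in place of 99.2%, with 26 sites above and 34 below in place of 236 and 2. With a pseudocount of 1 the calls by HA were 13 risen and 0 fallen, those of Halo-HSF2 by the HSF2 antibody 152 and 7, and those of Halo-H2DBD 0 and 0. The general rise of HSF2 and of Halo-HSF2 by HA was thus about equal to that of the weakest sites. Those weakest sites were drawn from all distinct HSF2 sites with the HSF2-only start sites included. The comparison is therefore in part one of the sites with themselves.

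At the 65 sites where HSF2 fell in M, A signals were high. Their median HSF2 signal was 14.0 in A and 2.71 in M, which is at percentile 96.5 and percentile 12.1 of the HSF2-only start sites. Part of this contrast is given by the selection, which asks for an A signal at least 2-fold that in M. Of the 50 HSF2-only start sites with the highest HSF2 signal in A, 43 fell in M. In the quartile with the highest A signal 24.5% fell, and among all HSF2-only start sites 6.63%. Ranking by A favours a fall in part, since A signal enters the ratio. In the plot of A against M the fallen sites stand apart from the main cloud, to the right of it and below the line of equal signal.

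Named by gene, many of the fallen sites lay at developmental regulators. A list of formative and early lineage regulators (Hox genes, Otx2, Eomes and others, 61 coding genes) had 11 HSF2-only start sites and no HSF1-overlapping start site. HSF2 fell at 11 of these 11, against 6.63% of all HSF2-only start sites. The 11 had a median log2 M/A of -2.76 and a range from -4.65 to -1.36. A wider list of developmental transcription factor families (homeobox, paired box, T-box, forkhead, SOX, AP-2 and others, 312 coding genes) was drawn up after the values had been seen, so its counts are a description and support nothing on their own. It had 39 HSF2-only start sites at 37 genes, against 7 HSF1-overlapping start sites, and HSF2 fell at 32 of the 39 (82.1%) and at 33 of the other 941 (3.51%). The 39 sites had a median HSF2 signal of 14.8 in A and 2.75 in M. After centring on the weakest quartile HSF2 fell at 33 of the 39, and at 106 of the others (11.3%).

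**Figure D2:**
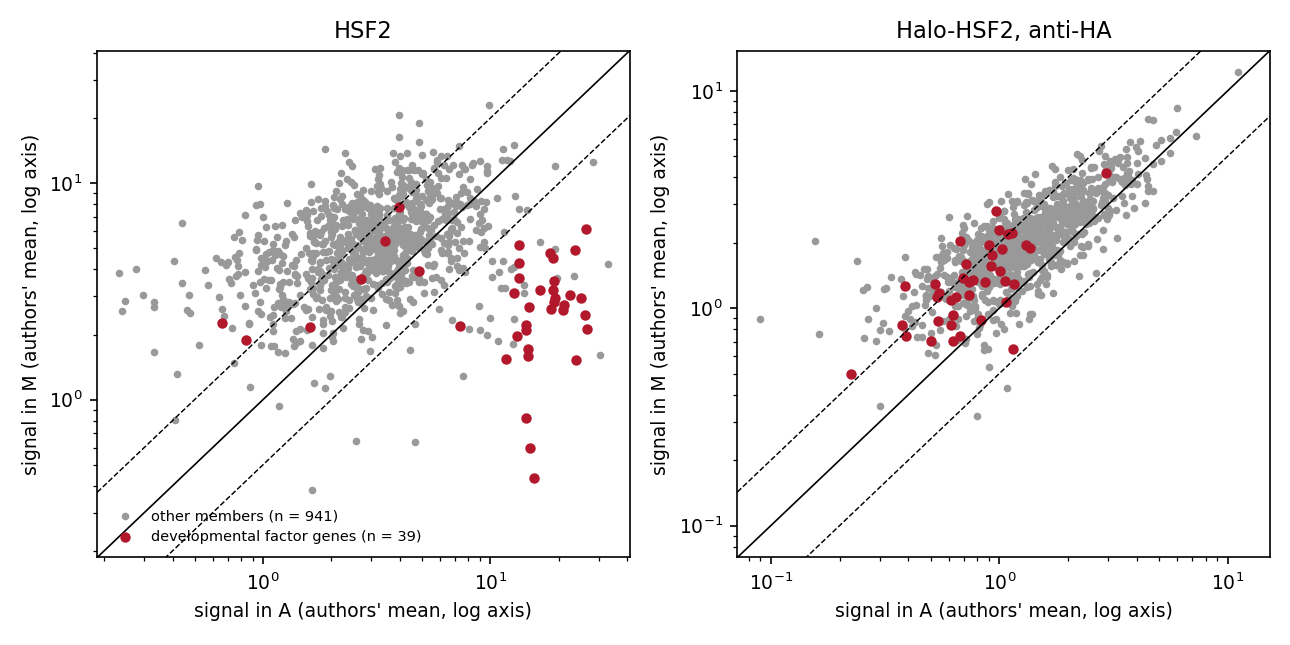
Signal of each HSF2-only start site in A (x axis) and M (y axis), both as the authors' mean on log axes, for HSF2 (left) and Halo-HSF2 by the HA antibody (right), with the line of equal signal and dashed lines at 2-fold. The 39 sites at developmental factor genes (red) lie mostly below the lower dashed line for HSF2, where 32 fell, and none of the 39 fell for Halo-HSF2 by HA.

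Hox genes, which set position along the body axis and are mostly silent in embryonic stem cells, had 8 sites. HSF2 fell at all 8, against 6.63% of all HSF2-only start sites. These 8 are part of the 11 sites of the lineage list above. The 8 Hox sites had HSF2 signals from 11.7 to 26.2 in A and from 0.819 to 5.19 in M. At Hoxb6 (chr11:96298960-96301274, over the start) the HSF2 signal of 26.2 in A dropped to 2.46 (log2 M/A -3.41). Halo-HSF2 there had 2.49 and 1.33 with the HSF2 antibody and 0.829 and 0.878 with HA, and Halo-H2DBD had 0.763 and 0.678. The high value at Hoxb6 was thus that of endogenous HSF2 in A, with the other columns between 0.678 and 2.49. At Hoxb2, a gene of hindbrain patterning (chr11:96349428-96354971), HSF2 was 14.3 in A and 0.819 in M. Hoxc13, with 13.3 in A and 5.19 in M, was the Hox site with the smallest fall.

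Other regulators of early patterning followed the same course. Otx2, a homeobox gene of the forebrain and of the exit from naive pluripotency, had a pair of intervals. The interval over a start (chr14:48664888-48665455) went from 15.0 to 0.595 (log2 M/A -4.65), with Halo-HSF2 by HA at 0.674 and 2.04. Its neighbour (chr14:48665820-48667204) went from 14.3 to 2.11. Ebf3, an early B-cell factor gene of neural differentiation, had the deepest fall, from 15.6 to 0.436 or -5.16 on the log2 scale (chr7:137313971-137314763). Halo-HSF2 by the HSF2 antibody fell there too, from 4.52 to 1.11, but rose by HA from 0.999 to 2.29. That interval also had the most CpG of any HSF2-only start site, 15.3 per 100 bp. Tfap2a, the AP-2 factor of the neural crest, fell at both of its intervals, from 23.8 to 1.53 and from 25.1 to 2.95. Msx1, a homeobox gene of limb and face, went from 26.4 to 6.16 (chr5:37824049-37824965), with Halo-HSF2 by the HSF2 antibody falling from 6.06 to 1.70 and staying at 1.07 by HA in both phases. At Ebf3 and Msx1 the fall was thus shared by the columns with the HSF2 antibody and absent by HA. Eomes, a T-box gene of mesendoderm and trophoblast, went from 18.2 to 4.75. Otp, a homeobox gene of hypothalamic neurons, went from 26.7 to 2.12 at an interval 914 bp from its start (chr13:94876516-94877965).

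At 7 of the 39 sites of the wider list HSF2 did not fall, and several of these genes act in cells of many kinds. Foxm1, a driver of mitotic gene expression, rose from 0.662 in A to 2.27 in M. Olig1, a glial bHLH gene, rose from 0.840 to 1.88. At Foxo3, a forkhead factor of stress and insulin signalling, HSF2 was 2.71 in A and 3.63 in M. Hes1, Prdm4, Prdm10 and Nr2f6 were the others, each with less than 5 in A. The A signals of the 7 sites, from 0.662 to 4.87, were all below the lowest A signal of the 32 fallen sites of the list, 7.36 at Zic2. A signal enters the ratio that sorted these sites, so this order is in part given by the call. Among all HSF2-only start sites too, 60 of the 65 fallen ones were in the highest quartile of A signal.

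Polycomb genes had sites that rose and sites that fell. Of 36 genes on a list of DNA methylation and Polycomb regulators, 8 had an HSF2-only start site. HSF2 fell at 3 and rose at 3 of the 8, or 37.5% each. Of all HSF2-only start sites 6.63% fell and 38.7% rose, so the risen share was near the general one and the fallen share above it. Cbx8 had the highest A signal of all 980 sites, 32.8, with 4.24 in M (chr11:119039177-119043052), and its Halo-HSF2 signal was 5.52 and 3.25 by the HSF2 antibody and 1.68 and 2.07 by HA. Cbx2, on the same chromosome, went from 4.67 to 2.23. In contrast Suz12, a core subunit of PRC2, rose from 1.22 to 6.41, and Pcgf2, a PRC1 subunit, from 0.778 to 3.79. Cbx7, the chromobox subunit that prevails in embryonic stem cells, rose from 3.04 to 7.59. Cbx1 is on the list by its symbol but encodes a heterochromatin protein, and its HSF2 was 2.04 in A and 2.03 in M.

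The remaining fallen sites lay at genes of other kinds. Vwc2, a secreted antagonist of bone morphogenetic proteins, went from 30.3 to 1.60 (chr11:11113583-11115111), while Halo-HSF2 by HA was 0.705 and 0.693. Hsf4, the heat shock factor of the lens, went from 23.4 to 3.75 (chr8:105267025-105271694). Ccnd2, a cyclin of the first gap phase, went from 9.94 to 2.38, and Cdkn1c, an imprinted inhibitor of cyclin-dependent kinases, from 10.2 to 4.38. H2-Q6 was the exception in level, since its HSF2 fell from 28.4 to 12.5 and so stayed among the strongest sites in M.

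The fall of HSF2 at these sites was weak or absent in the tagged columns. At the 65 fallen sites the median log2 M/A was -0.05 for Halo-HSF2 by the HSF2 antibody, 0.79 for Halo-HSF2 by HA and 0.12 for Halo-H2DBD. Below 0 were 34 of the 65 with the HSF2 antibody and 4 by HA. Of all HSF2-only start sites 83.9% were higher in M with the HSF2 antibody and 89.6% by HA. With the HSF2 antibody the median over all HSF2-only start sites was 0.77, so the fallen sites lay below the others in that pair too. Tagged signal in A was also not high there: the A median by HA, 0.760, stood at percentile 17.7 of the HSF2-only start sites, and that of Halo-H2DBD, 1.10, at percentile 21.3. With the HSF2 antibody the Halo-HSF2 A median was 1.84, at percentile 61.6, and the M median 1.68, at percentile 19.5. Since the 65 sites were taken by their HSF2 fall, a higher A signal and a deeper fall in HSF2 than in the other columns follow in part from the selection.

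The 39 sites of the wider developmental list include 32 of the same 65, and the list was made with the HSF2 values known, so they are no separate line of evidence. The median log2 M/A was -2.57 for HSF2, -0.50 for Halo-HSF2 by the HSF2 antibody, 0.80 by HA and 0.06 for Halo-H2DBD. Centred on the weakest sites it was -3.27, -1.03, 0.11 and 0.06, and by HA with a pseudocount of 1 it was 0.37. Halo-HSF2 by the HSF2 antibody fell at 7 of the 39, or at 21 after centring, against 1.91% and 5.74% of the other sites. By HA it fell at 0 and rose at 12 of the 39, against 0.204% and 24.1% of all HSF2-only start sites. After centring it fell by HA at 1 and rose at 1. Among these sites 35 had an HSF2 A signal above the median of the HSF2-only start sites, 28 had so for Halo-HSF2 by the HSF2 antibody, and 3 by HA. HSF2 and Halo-HSF2 by the same antibody differ in genotype and expression level, and the Halo-HSF2 pairs in antibody and possibly construct. The part of each in the difference was not tested.

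**Figure D3:**
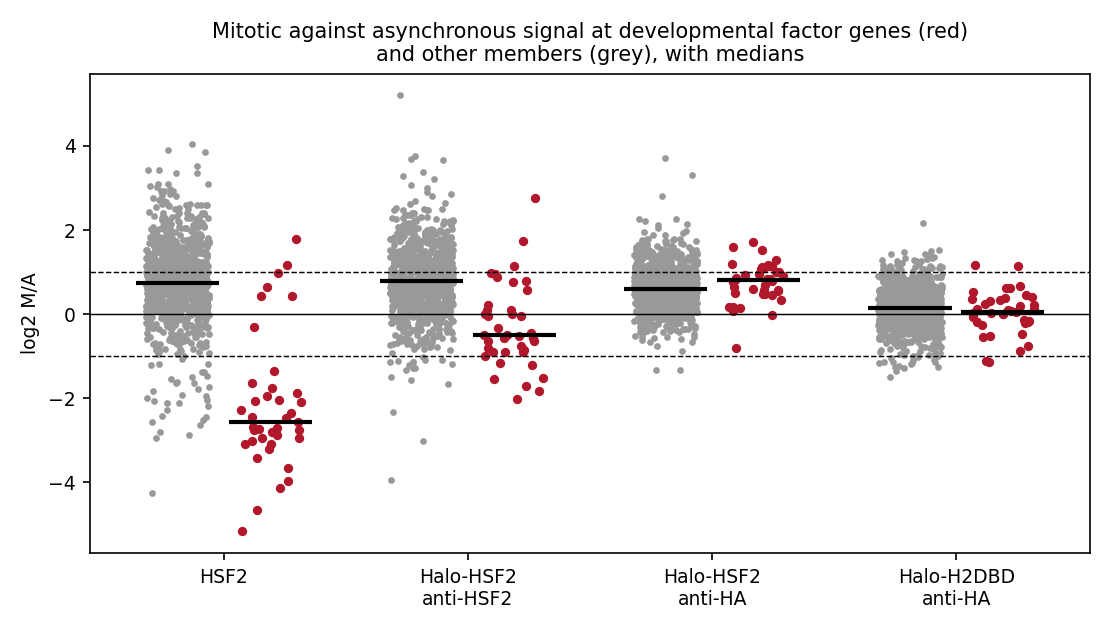
The log2 M/A of each HSF2-only start site in the 4 pairs of columns, at developmental factor genes (red, n = 39) and elsewhere (grey, n = 941), with bars at the medians and dashed lines at 2-fold. The red median is -2.57 for HSF2, -0.50 for Halo-HSF2 by the HSF2 antibody, 0.80 by HA and 0.06 for Halo-H2DBD.

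At the other end, the largest rises among sites of at least median level started from low A signals, which enter the ratio. Stk4 (chr2:164073965-164074806) went from 0.951 in A to 9.76 (log2 M/A 3.36). Its Halo-HSF2 signal rose with the HSF2 antibody from 2.18 to 7.03, but was 0.853 and 0.644 by HA, and Halo-H2DBD fell from 1.44 to 0.697. Ncapg2, which helps to compact mitotic chromosomes, rose from 0.968 to 7.99 in HSF2, from 1.25 to 6.93 in Halo-HSF2 by the HSF2 antibody and from 1.00 to 2.69 by HA (chr12:116404617-116406216). All 3 pairs with the whole protein were thus higher in M at Ncapg2, while Halo-H2DBD had 2.05 and 1.89. Immt, which organises mitochondrial cristae, rose from 1.63 to 9.92. The kinase gene Cdkl2 rose from 0.933 to 7.93, and Fam136a from 1.28 to 8.09. The interval near 2900026A02Rik, 253 bp from its start, rose from 1.88 to 14.4.

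Rbx1, the RING subunit of cullin ubiquitin ligases, had the highest M signal, 23.0, after 9.82 in A (chr15:81465521-81467216). Its Halo-HSF2 signal by the HSF2 antibody rose from 1.17 to 4.37. By HA it was 5.60 in A and 5.15 in M, and Halo-H2DBD had 5.42 and 5.43. The HA columns at Rbx1 were high and level between phases, so the rise was seen with the HSF2 antibody alone. Tbl1xr1, a subunit of the NCoR corepressor, was strong in all columns, with HSF2 of 19.2 and 12.0 and Halo-H2DBD of 4.64 and 5.50.

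The highest signals by HA were at starts with HSF2 signals of varied level. Sp1 had Halo-HSF2 by HA at 11.0 in A and 12.2 in M, Halo-H2DBD at 11.4 and 9.72, and HSF2 at 9.64 and 12.0 (chr15:102404753-102407505). Eif4a1, an RNA helicase of translation initiation, had Halo-H2DBD at 7.39 and 6.07 beside HSF2 at 5.47 and 6.06. The kinase gene Mapk9, which encodes JNK2, had 5.06 and 7.47 beside 6.01 and 8.57. Txnrd3, a thioredoxin reductase, had Halo-HSF2 by HA at 5.97 and 8.38. At these 4 starts HSF2 and the tagged proteins were above their medians in every column.

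Hcfc1 on the X chromosome, which encodes a coregulator of cell proliferation, was an exception to that. Its Halo-H2DBD signal was 7.74 in A and 5.52 in M, and Halo-HSF2 by HA 7.24 and 6.20. With the HSF2 antibody, HSF2 was 0.417 and 1.32, and Halo-HSF2 0.280 and 0.693. The HA columns were among the highest of all HSF2-only start sites there and the HSF2 antibody columns among the lowest.

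Across the 980 sites the columns with the HA antibody went together, more than those of Halo-HSF2 did between antibodies. The rank correlation of Halo-HSF2 by HA with Halo-H2DBD was 0.83 in A and 0.76 in M. For Halo-HSF2 the HSF2 and HA antibodies gave 0.44 in A and 0.36 in M. HSF2 in A and HSF2 in M gave 0.32. HSF2 correlated with Halo-HSF2 by the HSF2 antibody at 0.29 in A and 0.53 in M, and with Halo-HSF2 by HA at 0.14 in A and 0.36 in M. These values describe sites within averaged columns, n = 980 for each, and the points share width and base composition. The log2 M/A of HSF2 correlated at 0.26 with that of Halo-HSF2 by the HSF2 antibody (n = 979) and at -0.03 with that by HA.

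By HA, changes past 2-fold in the direction of a fall were rare. The extracellular matrix gene Fn1 fell from 1.08 to 0.428 and Rad54b, a DNA repair helicase, from 0.795 to 0.319, and these are the 2 called sites. Among sites of at least median level the largest rises by HA were at Phyhipl (0.720 to 2.67), Palm3 (0.884 to 3.02), Pigp (0.905 to 3.07), a gene of GPI anchor synthesis, and Saysd1 (0.773 to 2.47). At the opposite end Map3k12, a neuronal stress kinase, had 2.66 in A and 1.46 in M, and Tsc1, a brake on mTORC1, had 2.22 and 1.41. Ccdc12 had 3.29 and 2.10, and the helicase gene Ddx59 2.86 and 1.88. HSF2 itself was higher in M at all 8 of these starts, so Halo-HSF2 by HA and HSF2 differed in direction at the latter 4. Halo-HSF2 by the HSF2 antibody varied there: it rose at Tsc1 from 3.82 to 9.17, was 4.74 and 4.91 at Map3k12, and was lower in M at Ccdc12 (2.54 and 1.55) and Ddx59 (5.57 and 4.25).

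Heat shock elements were uncommon at the HSF2-only start sites. An element of 3 units lay in 56 of 980 intervals (5.71%, Wilson 95% interval 4.43% to 7.35%). Of the HSF1-overlapping start sites 16.7% held an element, as did 18.6% of the distal sites with reference sequence and 14.1% of all distinct HSF2 sites. Windows of the members' median width, 2306 bp, around all 41493 coding start positions held one in 3.95%. The share at HSF2-only start sites was thus nearer to that of coding starts in general than to that of the other HSF2 sites. A match says that the letters are present and not that HSF2 used them.

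Where an element was present it seldom lay at the start itself. In the 300 bases from 250 before to 50 after the start, 3 HSF2-only start sites (0.306%) held one, against 3.47% of HSF1-overlapping start sites and 0.533% of all coding starts. The 58 elements had a median distance of 874.5 bp from the nearest coding start, and 43 were more than 500 bp away. Of them 24 lay in introns, 23 outside genes, 9 in noncoding exons or untranslated regions and 2 in coding exons.

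Sites with an element had more HSF2 and less tagged protein. Their HSF2 medians were 4.95 in A and 6.48 in M, against 3.12 and 5.00 at the 924 sites without one. Halo-HSF2 by HA had 1.04 and 1.43 against 1.29 and 1.97, and the median log2 M/A of HSF2 was 0.50 against 0.74. Cenpf had HSF2 of 12.2 in A and 12.6 in M, with Halo-HSF2 at 1.31 and 1.95 by the HSF2 antibody and at 1.49 and 2.35 by HA. At Rpl6, HSF2 was 11.3 and 12.8, and Halo-HSF2 by HA 0.801 and 0.762. These starts had a high and nearly level HSF2 signal in both phases, with Halo-HSF2 by HA above its medians at Cenpf and below them at Rpl6. The phosphatase gene Ppm1h, with 9.66 and 11.4, was similar in HSF2, while Bst2 was higher in M, with 6.55 and 11.6. Slc35f3, at 12.7 and 15.0, had the 1 value at 0 in any of the 8 columns, that of Halo-HSF2 by the HSF2 antibody in A, and its interval lies 455 bp from the start. Foxc2, a forkhead gene of mesenchyme with an element in an intron of the overlapping gene Gm20388, fell instead, from 18.9 to 3.20. Mgmt, with its 4 units, had 5.54 and 8.46.

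The E-box CACGTG was more frequent at HSF2-only than at HSF1-overlapping starts, in contrast to the heat shock element. It stood in the 300-base promoter window of 224 of 980 (22.9%, Wilson 95% interval 20.3% to 25.6%), against 10.9% (8.64% to 13.7%) of HSF1-overlapping start sites and 7.55% of all coding starts. The share was also higher than at starts rich in CpG: of the 9720 coding starts with at least 26 CpG in the window, the median of the HSF2-only start sites, 11.3% held the word. Of the 285 E-boxes found, 154 (54.0%) were in the 100 bases before the start, which make up 33.3% of the window. Over whole intervals the groups differed less, with the word in 57.7% of HSF2-only and 49.1% of HSF1-overlapping start sites.

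Starts with an E-box had larger HSF2 ratios, a difference that was not tested. Their HSF2 medians were 2.96 in A and 5.26 in M, and the median log2 M/A was 0.94 against 0.66 at the 756 starts without one. Halo-HSF2 by the HSF2 antibody had 1.01 against 0.71, and it rose at 114 (50.9%) and fell at 0, against 35.4% and 3.31% without the word. HSF2 rose at 104 (46.4%) and fell at 6 (2.68%), against 36.4% and 7.80%. The columns by HA differed less, with 27.7% risen against 23.0% for Halo-HSF2 and 4.46% against 5.03% for Halo-H2DBD. Myo9a, printed above, rose from 3.95 to 16.4, Pip4p1 from 5.60 to 14.0 and Mms19 from 6.08 to 13.3. Cbx8 was 1 of the 6 E-box starts where HSF2 fell.

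Other promoter words were shared with HSF1-overlapping start sites. The GC box GGGCGGGG stood in 46.5% of HSF2-only start sites, 41.3% of HSF1-overlapping ones and 23.0% of all coding starts, but in 48.2% of those rich in CpG. The CCAAT box was in 45.2%, 47.4% and 36.8%, and in 29.2% of the CpG-rich starts. The NRF1 word GCATGCGC was in 6.02%, 5.90% and 3.49%, and in 5.99% of the CpG-rich starts. The YY1 word AAGATGGCG was in 5.00%, 3.99% and 1.95%, and in 3.43% of the CpG-rich starts. The TATA box TATAAA was in 5.31%, and in 5.21% of HSF1-overlapping start sites. Both lay below the 11.8% of all coding starts and above the 2.59% of CpG-rich ones. The ETS word CCGGAAGT was in 4.90%, against 6.25% of HSF1-overlapping start sites, 4.95% of all coding starts and 7.45% of CpG-rich ones. The CRE word TGACGTCA was in 3.88%, against 5.21%, 2.28% and 3.72%. The ZFP143 word ACTACAATT was in 0.816%, against 0.868%, 0.545% and 0.216%. All words were searched on both strands, and none was filtered for overlap with another.

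**Figure D4:**
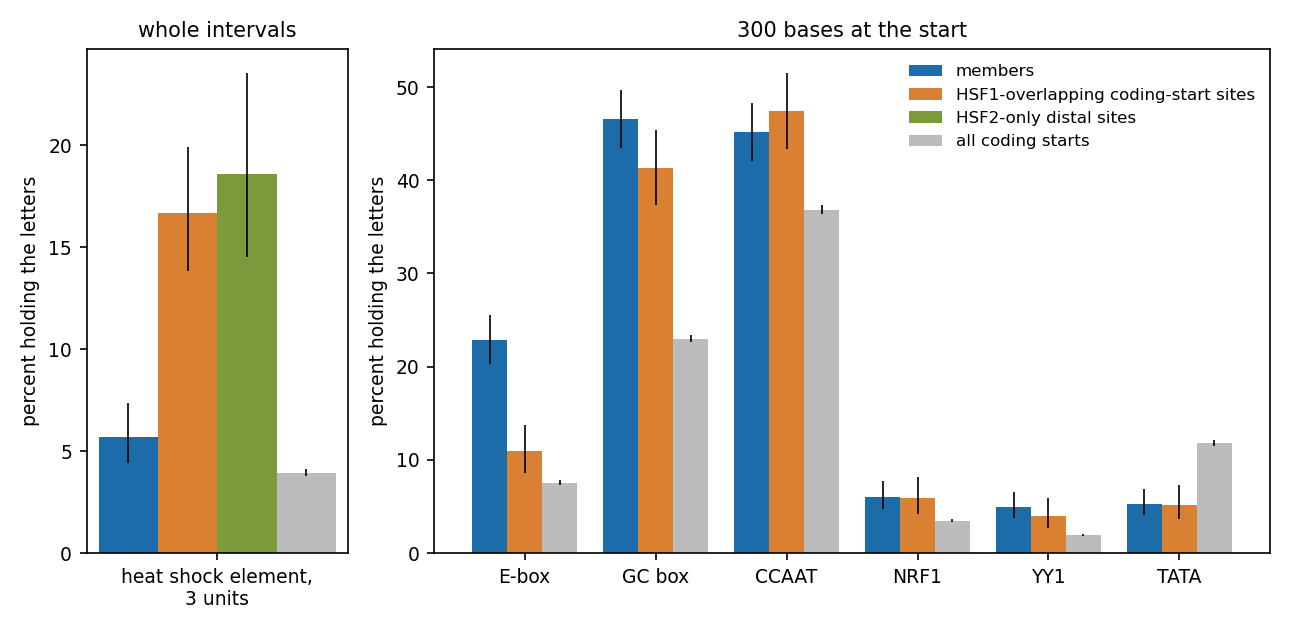
Percent of sites holding a heat shock element of 3 units in the whole interval (left; for all coding starts, in windows of 2306 bp) and percent of 300-base promoter windows holding each word (right), with Wilson 95% intervals over sites. HSF2-only start sites, labelled members, had the element in 5.71% and the E-box in 22.9%.

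The intervals were typical CpG-rich promoters. Their median width was 2306 bp, against 2714 bp at HSF1-overlapping start sites and 1859 bp at distal sites, and in 958 of 980 (97.8%) the start lay inside. Median CpG density was 5.39 per 100 bp, against 4.64 and 2.32. Divergent coding starts lay at 97 of the sites (9.90%), against 13.9% of HSF1-overlapping ones. At these 97 the HSF2 median log2 M/A was 1.14, against 0.67 elsewhere, and HSF2 rose at 61.9% of them, against 36.1%. The tagged pairs showed no such difference: Halo-HSF2 had 0.76 against 0.77 by the HSF2 antibody and 0.53 against 0.62 by HA. The 22 sites with the start outside the interval were of the opposite kind, with HSF2 medians of 12.9 in A and 3.14 in M. HSF2 fell at 10 of the 22 (45.5%), against 5.74% of the 958 with the start inside. The developmental genes Otp and Dlx1 are among the 22, so these sites overlap those described above.

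Intervals of SOX2, a core pluripotency factor, overlapped these sites less often than other HSF2 sites; the authors took the intervals from earlier literature, and the signal over them is from this study. Of the HSF2-only start sites 108 (11.0%) shared bases with a SOX2 interval, against 21.7% of HSF1-overlapping start sites, 19.5% of distal sites and 19.1% of all distinct HSF2 sites. The SOX2 signal in the overlapping intervals was also lower, with medians of 15.2 in A and 17.1 in M against 35.7 and 42.7 at HSF1-overlapping start sites. HSF2 rose at 27.8% of the sites with SOX2 and at 40.0% of the 872 without.

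By function, the HSF2-only start sites touched 1116 of 21924 coding genes (5.09%), and chaperone genes more often had an HSF1-overlapping start site. Of 108 genes for heat shock proteins, chaperonins, co-chaperones and heat shock factors, 9 had an HSF2-only start site and 28 an HSF1-overlapping one. These were 9 and 26 sites, where all coding starts had 980 and 576. HSF2 rose at 4 of the 9 and fell at 1, Hsf4, where 38.7% of all HSF2-only start sites rose and 6.63% fell. The interval shared by Hsf1 and Bop1, a ribosome biogenesis gene, rose from 0.439 to 3.48. At Stub1, the ubiquitin ligase CHIP that acts on chaperone clients, HSF2 was 3.87 and 6.55, and at the ER co-chaperone gene Dnajb11 4.85 and 5.10. Hspb11, on the list by symbol, encodes a subunit of intraflagellar transport, and it rose from 2.15 to 10.1.

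Cytosolic ribosomal protein genes showed the reverse balance. Of 85 genes 14 had an HSF2-only start site and 3 an HSF1-overlapping one, where all coding starts had 980 and 576 sites. The 14 had a median log2 M/A of 0.39, below the 0.72 of all HSF2-only start sites. Rps21 rose from 2.10 to 9.25 and Rplp2 from 3.18 to 7.83. Of 109 genes of translation factors and tRNA synthetases 9 had an HSF2-only start site and 5 an HSF1-overlapping one, near the balance of all sites. Iars2, the mitochondrial isoleucine-tRNA synthetase, rose from 0.405 to 4.39, and Eif4g1, the scaffold of the cap-binding complex, from 1.04 to 4.39. Eif5, which triggers GTP hydrolysis at the start codon, had 8.14 and 10.4. Tars, the threonine-tRNA synthetase, had the largest ratio of Halo-HSF2 by the HSF2 antibody, from 0.0607 to 2.24, a ratio that rests on a value close to 0 in A. Of 78 genes of the mitochondrial ribosome 3 had an HSF2-only start site and 4 an HSF1-overlapping one, among the former Mrps18b, which rose from 2.45 to 12.0.

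Replication-dependent histone genes, by contrast, were mostly on the HSF1 side. Of 69 genes 6 had an HSF2-only start site and 33 an HSF1-overlapping one. Some genes share an interval, so these were 4 and 14 sites, where all coding starts had 980 and 576. The interval shared by Hist2h2aa2 and Hist2h3c2 had HSF2 of 6.36 and 10.6, and that of Hist2h2aa1 and Hist2h3c1 rose from 3.80 to 8.42. The latter pair are near-identical copies of the former, so reads between them cannot be assigned with certainty. H2afz, the variant histone H2A.Z and 1 of 9 variant genes listed, had level HSF2 of 4.10 and 4.11 while Halo-HSF2 by the HSF2 antibody rose from 1.37 to 5.54.

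Cell-cycle lists were mixed. Of 127 mitosis genes 9 had an HSF2-only start site, of which 3 rose and 1 fell, and the faller, Kif26a, encodes an atypical kinesin without a known part in the spindle. Smc3, the cohesin subunit, had 2.30 in A and 2.94 in M. Of 94 replication and repair genes 8 were touched, with Rad51c, a recombination factor, rising from 1.88 to 8.30 and Pole2, a subunit of DNA polymerase epsilon, at 7.65 and 11.6. Pluripotency factors had 2 of 22: Klf5 rose from 1.67 to 4.77 and Klf4 from 1.15 to 4.07. With 38.7% of all HSF2-only start sites risen, a pair of sites says little of such a list.

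The other lists, of 3 to 16 sites each, are too small to be set apart from the 38.7% risen and 6.63% fallen of all HSF2-only start sites. Splicing had 11 of 89 genes, with 4 risen, among them U2af1, which recognises the end of the intron and went from 0.673 to 2.44. The respiratory chain had 10 of 104, with 3 risen, among them Ndufa6, a complex I subunit, from 1.72 to 6.77, while Ndufs7 had 4.50 and 8.11. General transcription had 9 of 96, with 3 risen, among them the Mediator subunit gene Med26 from 1.62 to 8.20, while Taf8, a subunit of TFIID, had 4.69 and 8.54. Proteasome and ubiquitin genes had 3 of 101, with Psmd7, a proteasome lid subunit, rising from 0.774 to 4.15 and Ube2q1, a ubiquitin-conjugating enzyme, rising from 2.62 to 7.63 in Halo-HSF2 by the HSF2 antibody beside HSF2 of 3.98 and 7.24. Psme3, the nuclear proteasome activator, rose from 1.37 to 5.64. Zinc finger genes by symbol had 16 of 462, with 7 risen and none fallen, and Zfp444 at the top with 7.13 and 5.88.

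The sites were unevenly spread over the chromosomes. Chromosome 11 held 142 of them (14.5%) but 7.47% of coding genes, and chromosome 8 held 90 (9.18%) but 4.74%. That is 8.67 HSF2-only start sites per 100 coding genes on each, against 0.844 on X, where 8 sites lay. The excess was not particular to these sites, since 15.2% of all distinct HSF2 sites and 14.1% of HSF1 intervals were on chromosome 11. Chromosome 8 held 10.4% and 10.9% of them. Signal per site was near that elsewhere, with HSF2 medians of 3.52 in A and 4.92 in M on both chromosomes together against 3.10 and 5.05. Copy number of these chromosomes in the cells was not tested.

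**Figure D5:**
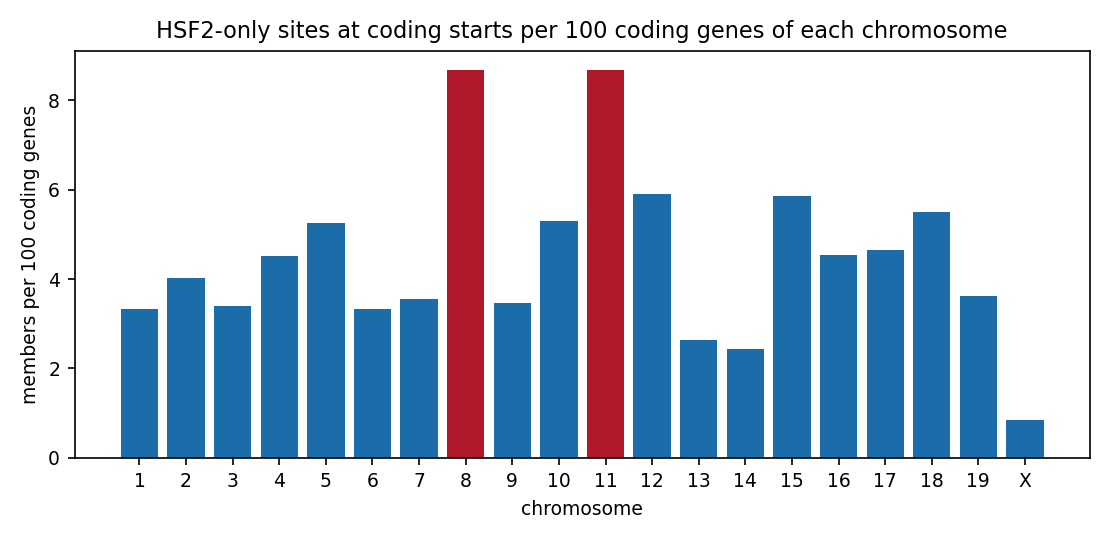
HSF2-only start sites per 100 protein-coding genes on each chromosome. Chromosomes 8 and 11 (red) have 8.67 each and X has 0.844.

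At the edges of the rule, the HSF2-only start sites farthest from a start were at Otp (914 bp), Dlx1 (814 bp) and A930004D18Rik (765 bp), with HSF2 in A of 26.7, 20.9 and 10.8. Just outside lay intervals near Fbxl22 (1060 bp) and Bahd1 (1179 bp), with 2.22 and 9.97. The HSF2-only start sites closest to an HSF1 interval were at Bax (168 bp), Kansl1 (460 bp) and Aida (495 bp), with 3.45, 3.91 and 2.05. On the other side, the start sites that shared the fewest bases with HSF1 intervals were at Phf21a (341 bp), Hcfc1r1 (608 bp) and Crebzf (682 bp), with 15.7, 4.73 and 30.4. An HSF1 interval lay within 10 kb of 48 of the 980 sites, and the median distance was 197016 bp.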

How the data were processed

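CUT&Tag libraries of JM8 cells were processed by the authors with FastQC, Bowtie2, deepTools and bedtools. The deposited tables give, per interval, a mean signal of 2 libraries scaled to a spike-in, and these signal values were used as the authors made them. The depth per library and read counts were not analysed here, so no counting error is given. Of 2141 HSF2 intervals 6 were exact repeats and were dropped. Intervals were compared with 1726 HSF1 and 15081 SOX2 intervals by an overlap of at least 1 base.

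The log2 M/A was taken without pseudocount over sites above 0 in both phases, and a site was called at 2-fold or more. Medians carry 95% order-statistic intervals and shares Wilson intervals, both over sites. Sites were named by rule: the highest HSF2 means, the largest ratios among sites of at least median level, and the highest means by HA. Also named were the highest HSF2 means with an element and per gene list, and the sites nearest the thresholds. Further sites were named from the gene lists after their values were seen. Gene symbols for lists were matched by pattern. Sites and lists were chosen with earlier results of these data known. Calculations used Python 3.11.15 with numpy 2.4.6, pandas 2.3.3, scipy 1.17.1, pysam 0.24.0 and matplotlib 3.10.9, and were tested on simulated data. Alternatives were other pseudocounts, filters, centring, site definitions and element lengths.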

Additional observations from a re-analysis of the deposited data

How the results depend on the processing

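No paired analysis was possible because each column is the authors' mean of 2 libraries and carries no replicate number, and for the same reason no library could be left out. In the HSF2-only start sites the median log2 M/A was lower with a pseudocount of 1: 0.56 for HSF2, 0.50 for Halo-HSF2 by the HSF2 antibody, 0.37 by HA and 0.10 for Halo-H2DBD, and by HA 0.57 with 0.1. In the top quartile by mean it was 0.36 for HSF2, 0.85 for Halo-HSF2 by the HSF2 antibody and 0.48 by HA. The log2 of the ratio of mean signals was 0.40 for HSF2 and 0.56 by HA. Centred on the weakest quartile of all distinct HSF2 sites, the medians were 0.01 for HSF2, 0.24 for Halo-HSF2 by the HSF2 antibody and -0.08 by HA, a change of sign. The difference of HSF2 medians from HSF1-overlapping start sites was -0.01 in the top quartile, also a change of sign, and 0.02 for the ratio of means; that from distal sites was 0.76 and 0.10. The cause was not tested. Requiring a mean of at least 1, the start inside the interval or no HSF1 interval within 1 kb, and merging overlapping intervals, left all 6 values within their intervals.

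The share with a heat shock element was 63.1% for 2 units, 0.102% for 4 units and 1.22% in the central 500 bp, by construction of the search.

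The following were chosen after seeing the data. Leaving out chromosomes 8 and 11 left every median and difference within its interval, as did, for HSF2 alone, a further pair of HSF2 means deposited with the sites. Calls after centring were 145 risen and 139 fallen for HSF2, 155 and 75 for Halo-HSF2 by the HSF2 antibody, and 26 and 34 by HA. With a pseudocount of 1 they were 152 and 7 for Halo-HSF2 by the HSF2 antibody, 13 and 0 by HA, and 0 and 0 for Halo-H2DBD. Among sites with a mean of at least 1, by HA 0 fell. Of the 65 sites with fallen HSF2 all fell with the further pair of means and 62 with a pseudocount of 1. For the lineage and developmental lists 21 of 26 alternative medians stayed within their intervals and 5 did not.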
